A study of Drosophila melanogaster with 4 samples.

Results

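A set of 10 genes of the insect cuticle was followed through midgut mRNA libraries of Drosophila melanogaster: the cuticular protein genes Cpr49Ae, Cpr67B and Cpr51A, the surface lipid genes osy and CG5065, the tanning genes ple and Ddc, the chitin synthase gene kkv, and the chitin deacetylase genes verm and serp. They are 10 of the 13585 distinct gene IDs in the deposited table, and were picked by name as cuticle, wax and chitin genes that stood higher at the later time. The change with time was therefore part of the choice, and is given as a description with no test. Poly(A) RNA came from midguts of flies labelled as receiving no treatment at 2 h, no treatment at 16 h, uracil at 2 h and uracil at 16 h. Uracil, a base of RNA, is shed by certain gut bacteria and is known to trigger a response of the gut lining. A single library stands for each of the 4 groups, so differences between single libraries have no replicate check and are described without a test. The one test made, of uracil over both times together, has no replicates either. The sources used here give no strain, sex, age or uracil dose, and do not say from when time was counted in the untreated flies.

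Cuticle is a layered matrix of chitin fibres and proteins. Chitin is polymerised at the apical membrane and then modified by deacetylases. Cuticular proteins of the Cpr family bind it through a conserved chitin-binding domain, and catechols made from dopamine cross-link the layers. A lipid coat on the surface limits water loss. In flies this matrix covers the epidermis and lines the tracheae, foregut and hindgut. The midgut itself carries a peritrophic matrix instead, whose chitin is known to come from a different synthase, Chs2.

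Normalized counts are the deposited values, in which 1 read was worth 0.127 in the untreated 2 h library, 0.0584 in untreated 16 h, 0.118 in uracil 2 h and 0.111 in uracil 16 h. The libraries held 8500378, 16588143, 8990316 and 8841796 reads in genes, in that order. Brackets after a fold hold its exact (Clopper-Pearson) 95% interval from the reads, which leaves out everything but counting error, as reads lacking molecular identifiers may be copies of one molecule. A gene was counted as 2-fold apart when its log2 ratio, taken after adding 1.02 to each value, reached 1. Genes entered such counts if their CPM (reads scaled to a common library total) averaged 1 or more. That held for 8560 genes and for 9 of the 10 described here, all but kkv. The midgut marker list had all 10 of its genes above that mean, summed to 38540 and 22752 normalized counts in the untreated libraries and 35009 and 24075 in the uracil ones, 2 h before 16 h. Since these are bulk samples, more cells of a type and more RNA per cell cannot be told apart.

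The label of the set held for most but not all of it. Between 2 h and 16 h, 5 of the 9 measured genes stood at least 2-fold higher in untreated guts and 8 in uracil-treated guts, and 0 stood 2-fold lower in either. Of all 8560 genes, 2.8% and 9.38% stood 2-fold higher in those comparisons, and 2.84% and 2.9% lower. The rule used both, so the counts support nothing. The median log2 ratio of the 9 genes was 2.14 untreated and 2.58 with uracil, beside 0.04 and -0.01 over all genes. The chitin genes kkv and serp lay apart from the label in untreated guts, and their values are given further on. Cpr51A and verm stood clearly higher at 16 h only with uracil. Each had an untreated ratio of 1.66 with a counting interval that includes 1 (0.922 to 3.16). Ddc did not reach 2-fold in untreated guts, at 1.97 (1.36 to 2.94).

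**Figure D1:**
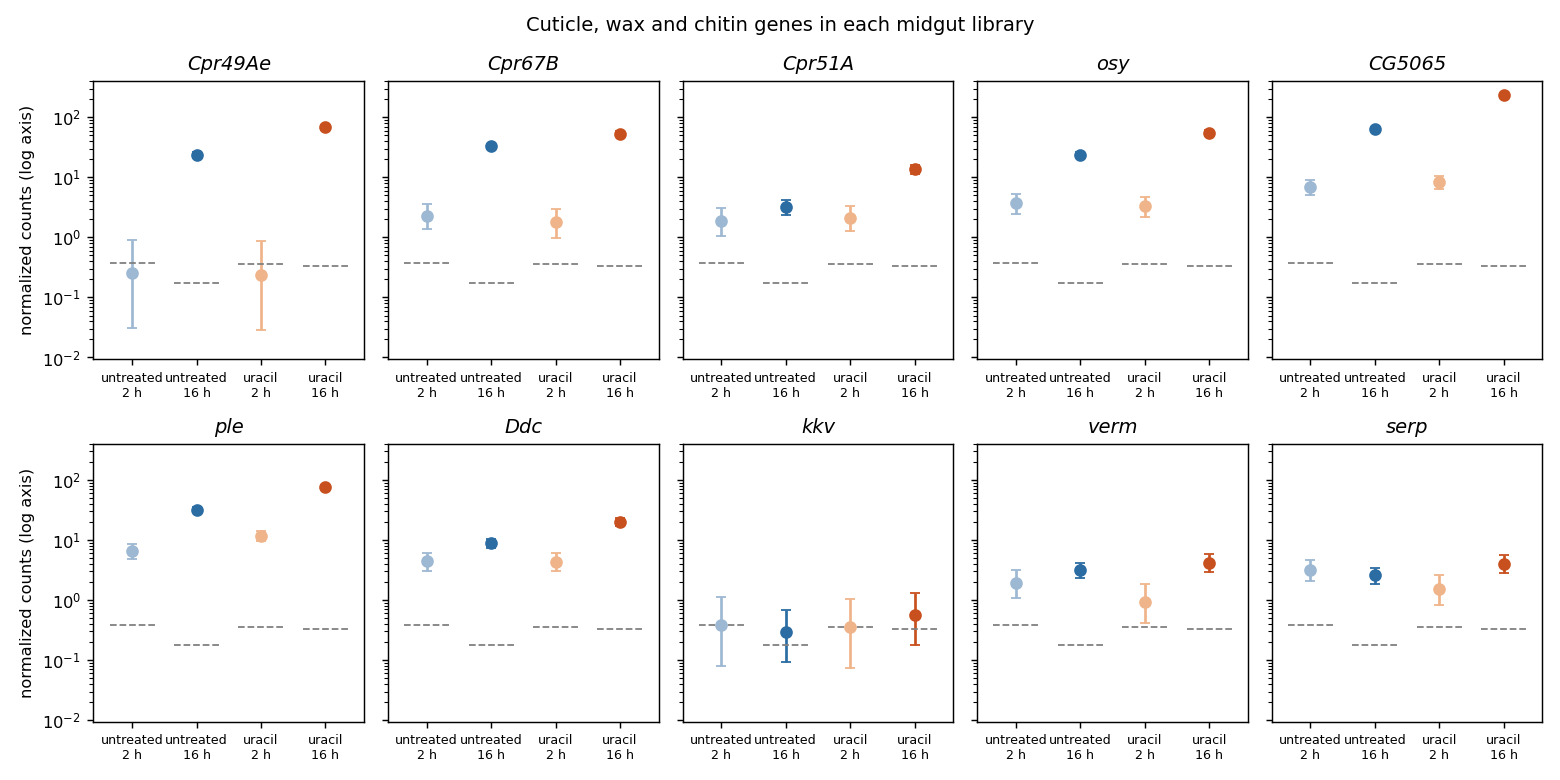
Normalized counts (log axis) of each of the 10 genes in the 4 libraries, 1 point per library with its exact Poisson 95% counting interval; dashed lines mark the value of 3 reads. Cpr49Ae, Cpr67B, osy, CG5065, ple and Ddc are higher in both 16 h libraries than in both 2 h libraries, with separate intervals. Cpr51A and verm have the same order with intervals that overlap in part, while kkv lies close to the dashed lines throughout.

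Cpr49Ae, a cuticular protein gene (FBgn0033728, chromosome arm 2R), went from almost no mRNA to a clear signal. It was at 0.254 normalized counts (2 reads) in untreated 2 h and 0.236 (2 reads) in uracil 2 h, and at 23.5 (403 reads) in untreated 16 h and 67.5 (609 reads) in uracil 16 h. Both 2 h libraries were at or under the floor of 3 reads and both 16 h libraries were far above it. The 16 h to 2 h ratio was 92.8 in untreated guts (25.5 to 769) and 286 with uracil (78.8 to 2365), each against 2 reads. Among the 8560 genes its log2 ratio over time was number 3 from the top in untreated guts and number 12 with uracil.

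Cpr67B, also a cuticular protein gene (FBgn0035985, 3L, 9404797 to 9406174), had a similar course from a higher start. It was at 2.28 normalized counts in untreated 2 h, 32.8 in untreated 16 h, 1.77 in uracil 2 h and 53.5 in uracil 16 h. The ratio over time was 14.4 untreated (9.0 to 24.4) and 30.2 with uracil (18.1 to 54.3). Cpr51A, the third of this family (FBgn0033942, 2R), was at 1.90, 3.15, 2.13 and 13.6 normalized counts in the same order. Only its uracil 16 h library stood clear of the others: the ratio over time was 6.41 with uracil (3.89 to 11.2) and 1.66 without (0.922 to 3.16).

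These 3 genes held most of the cuticular protein mRNA at 16 h and a smaller part of it at 2 h. The family, taken by symbol (Cpr, Lcp, Ccp, Twdl and related names), had 122 genes in the table. The 3 took 24.5% of the family's reads in untreated 2 h (exact 95% interval 17.7 to 32.4) and 21.7% in uracil 2 h (15.6 to 28.9). At 16 h they took 80.1% in untreated (77.8 to 82.3) and 82.4% in uracil (80.3 to 84.3). Since the 3 were chosen for being higher at 16 h, that shift follows the choice, and the other 119 genes carry the new information.

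Those 119 genes stayed scarce. No read was seen for 50 of them in any library, 52 had 1 to 9 reads over the 4 libraries together, 13 had 10 to 39, and 4 had 40 or more. Their summed level was 13.7 normalized counts in untreated 2 h, 14.8 in untreated 16 h, 14.9 in uracil 2 h and 28.8 in uracil 16 h. The 3 averaging 1 CPM or more were Cpr78E, Cpr57A and TwdlE. Over time 0 of them stood 2-fold higher in untreated guts and 1, Cpr57A, with uracil, at 2.33 normalized counts against 0.473 (21 and 4 reads). The genes that flank Cpr49Ae on its chromosome include Cpr49Af and Cpr49Ag, cuticular protein genes as well, and both had 0 reads in every library, which allows up to 0.175 to 0.38 normalized counts.

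**Figure D2:**
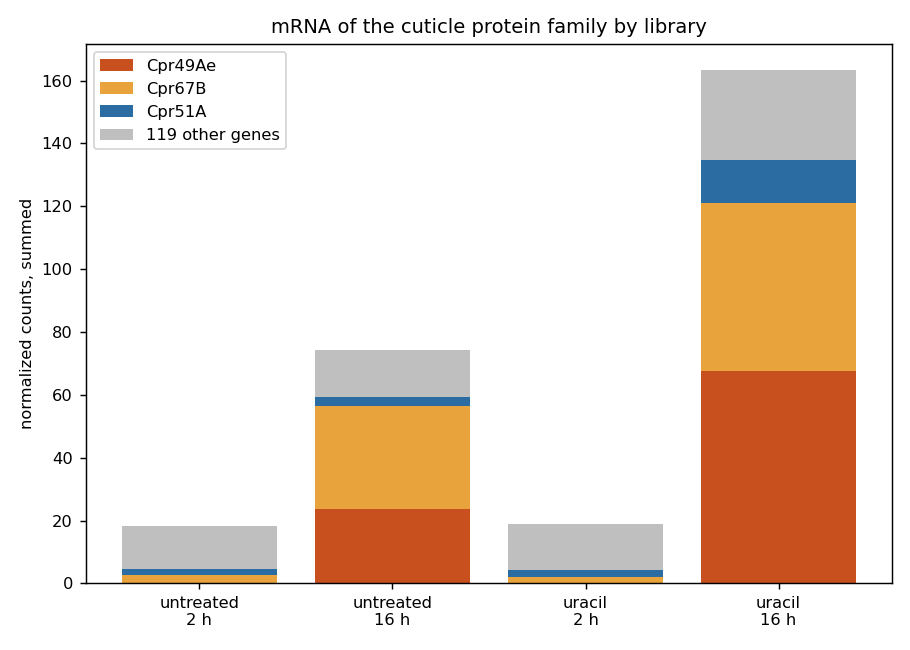
Summed normalized counts of the 122 cuticular protein genes in each library, with Cpr49Ae, Cpr67B and Cpr51A stacked below the sum of the 119 other genes. The 3 named genes make up 24.5% and 21.7% of the family's reads at 2 h and 80.1% and 82.4% at 16 h, without and with uracil.

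The lipid genes, too, were several times higher at 16 h in both treatments. CG5065, which encodes a protein of the fatty acyl-CoA reductase family (FBgn0034145, 2R), was at 6.85 normalized counts in untreated 2 h, 63.4 in untreated 16 h, 8.27 in uracil 2 h and 237 in uracil 16 h, the last the highest value of any of the 10 genes. Enzymes of that family make fatty alcohols. Its ratio over time was 9.25 untreated (7.04 to 12.4) and 28.6 with uracil (22.6 to 36.9). The gene osy, which encodes an ABC transporter needed for the lipid barrier of the cuticle (FBgn0053970, 3R, 26318355 to 26362588), was at 3.68, 23.8, 3.31 and 55.6 in the same order. Its ratio was 6.46 untreated (4.43 to 9.78) and 16.8 with uracil (11.5 to 25.5). For both genes each 16 h library lay above both 2 h libraries, which lay close to each other.

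Other genes of surface lipid synthesis and export fell into groups with different courses. The list held 28 genes besides osy and CG5065, of which 22 averaged 1 CPM or more. In untreated guts 4 stood 2-fold higher at 16 h and 4 lower (median log2 ratio 0.0), and with uracil 10 stood higher and 0 lower (median 0.8). The 4 higher in untreated guts were bond, a fatty acid elongase gene, wat, a fatty acyl-CoA reductase gene known from the tracheae, CG30427 and snu, an ABC transporter gene of the cuticle barrier. The gene snu was at 14.5, 32.4, 15 and 75.4 normalized counts in untreated 2 h, untreated 16 h, uracil 2 h and uracil 16 h. The gene wat was at 34.1, 78.6, 36.3 and 264, and bond at 7.10, 18.2, 8.74 and 59.8. All 3 were higher in both 16 h libraries, as osy and CG5065 were. CG30427 was at 0.127 (1 read), 1.52, 0.473 and 6.10.

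The hydrocarbon genes best known from oenocytes, the wax-producing cells under the epidermis, had another course. Cyp4g1, which encodes the P450 that makes hydrocarbons from aldehydes, was at 180 normalized counts in untreated 2 h, 76.9 in untreated 16 h, 103 in uracil 2 h and 303 in uracil 16 h. Its elongase and desaturase partners in this pathway, eloF and Fad2, were at 3.80, 1.23, 2.48 and 8.76 and at 8.12, 4.15, 6.14 and 21.8. All 3 were lower at 16 h than at 2 h without uracil and higher with it. CG17560, of the reductase family, was at 2.66, 0.818, 1.42 and 7.54.

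Tanning starts from tyrosine. The enzyme encoded by ple, tyrosine hydroxylase, makes DOPA, and the enzyme encoded by Ddc, DOPA decarboxylase, turns it into dopamine, which neurons also use as a transmitter. The level of ple (FBgn0005626, 3L, 6713356 to 6719525) was 6.47 normalized counts in untreated 2 h, 32.1 in untreated 16 h, 11.8 in uracil 2 h and 75.5 in uracil 16 h. The ratio over time was 4.96 untreated (3.72 to 6.74) and 6.39 with uracil (5.18 to 7.97). The level of Ddc (FBgn0000422, 2L, 19116483 to 19120306) was 4.44, 8.76, 4.37 and 20.0 in the same order. Its ratio was 1.97 untreated (1.36 to 2.94) and 4.57 with uracil (3.19 to 6.69). An exon of CG10561, on the other strand, overlaps Ddc, so that without a stated strand setting their reads may not be told apart. CG10561 was at 19.4, 17.8, 15.6 and 20.2, without the course of Ddc.

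Of 16 other tanning and pigmentation genes matched, 8 were measured. In untreated guts 1 stood 2-fold higher at 16 h and 0 lower (median log2 ratio 0.11), and with uracil 4 stood higher and 0 lower (median 0.82). The gene higher in both was Pu, which encodes the first enzyme for the cofactor of tyrosine hydroxylase, at 1.14, 4.38, 1.06 and 9.98 normalized counts in untreated 2 h, untreated 16 h, uracil 2 h and uracil 16 h. The others with uracil were yellow-h (8.10 at 16 h against 1.18 at 2 h), amd (3.55 against 1.18), a relative and close neighbour of Ddc, and Burs, a subunit gene of the tanning hormone bursicon (12.6 against 5.32). The cuticle colour genes e and y had at most 3 reads in any library.

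Of the chitin genes of the set, kkv and serp lay apart from the rest. The gene kkv (FBgn0001311, 3R, 5378093 to 5392866), which encodes the chitin synthase of epidermis and tracheae, had 3, 5, 3 and 5 reads in untreated 2 h, untreated 16 h, uracil 2 h and uracil 16 h, or 0.38, 0.292, 0.354 and 0.555 normalized counts. All 4 values were close to the floor of 3 reads, and a change with time was not detectable at this depth. The midgut synthase gene Chs2 was at 1029, 740, 923 and 671 in the same order, with a ratio over time of 0.719 untreated (0.699 to 0.739) and 0.727 with uracil (0.703 to 0.752). Both 16 h libraries lay below both 2 h libraries for Chs2, the opposite order to the cuticular protein genes.

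The deacetylases encoded by verm and serp modify chitin in the tracheal lumen, where they limit tube length. The genes are immediate neighbours on 3L, verm from 19690033 to 19695260 (FBgn0261341) and serp from 19700977 to 19708015 (FBgn0260653), both on the minus strand. The level of verm was 1.90 normalized counts in untreated 2 h, 3.15 in untreated 16 h, 0.945 in uracil 2 h and 4.21 in uracil 16 h. That of serp was 3.17, 2.57, 1.54 and 3.99. For serp the untreated 16 h value lay below the untreated 2 h value, with a ratio of 0.811 (0.485 to 1.38), whereas the ratio with uracil was 2.6 (1.35 to 5.34). For verm the ratios were 1.66 (0.922 to 3.16) and 4.46 (2.05 to 11.1). On 8 to 54 reads each, neither gene was 2-fold apart in untreated guts, and serp did not reach 2-fold with uracil after 1.02 was added.

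The wider chitin lists showed no common course. Of 10 other genes of chitin synthesis, which lead from trehalose to UDP-N-acetylglucosamine and chitin, 8 were measured and 0 were 2-fold apart in any of the 4 comparisons, with medians over time of -0.35 untreated and -0.55 with uracil. Of 14 other genes of chitin deacetylation and organisation 5 were measured. Gasp, which encodes a chitin-binding protein of the tracheal lining, stood 2-fold higher at 16 h in both treatments, at 11.3, 25.4, 8.74 and 25.2 normalized counts, and Cda9, a gut deacetylase gene, stood lower in untreated guts alone (8.24 at 2 h against 1.40 at 16 h). Of 19 chitinase, Idgf and hexosaminidase genes 17 were measured, of which 1 stood 2-fold higher in untreated guts and 5 with uracil, and 0 lower in either. Those with uracil included Cht9 (75.7 at 16 h against 16.7 at 2 h) and Cht8 (94.2 against 36.2), and the one without was Cht7 (4.38 against 0.254, from 2 reads at 2 h).

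**Figure D3:**
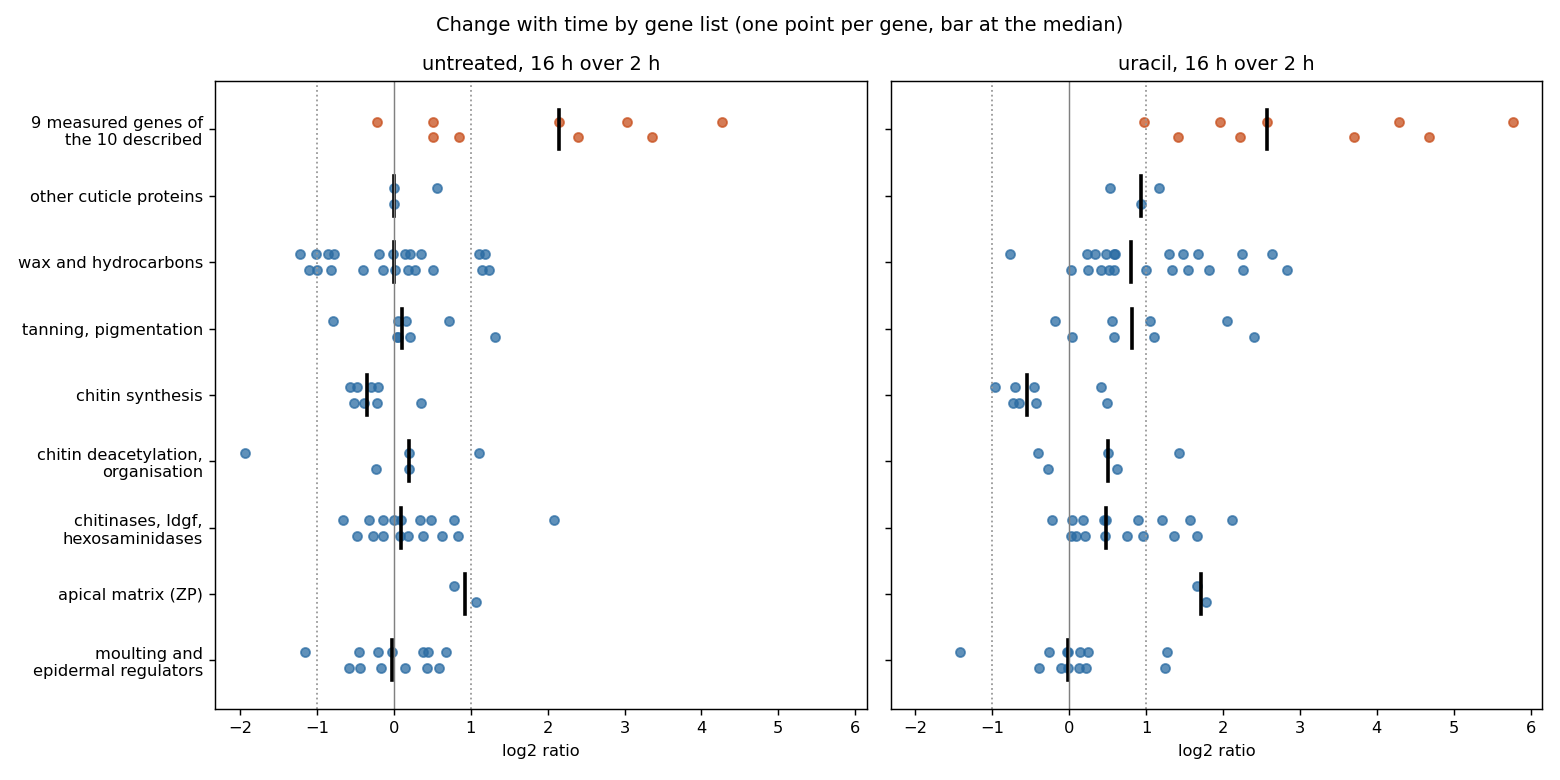
Log2 ratio of 16 h over 2 h in untreated (left) and uracil-treated (right) guts for each gene averaging 1 CPM or more, by list, with a bar at each list's median and dotted lines at a 2-fold difference. The 9 measured genes of the set, drawn in orange, have medians of 2.14 and 2.58, while the chitin synthesis list has medians of -0.35 and -0.55.

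Small groups complete the pathway. Of 10 genes of apical matrix proteins with a zona pellucida domain, 2 were measured. The gene qsm was at 1.52, 4.32, 1.06 and 6.10 normalized counts and pio, known from the tracheae, at 4.95, 9.29, 5.67 and 20.1, each higher in both 16 h libraries. Of 14 moulting hormone and epidermal regulator genes 13 were measured. In untreated guts 0 stood 2-fold higher and 1 lower, and with uracil 2 stood higher and 1 lower, with medians of -0.03 and -0.01. The 2 were grh, an epidermal transcription factor gene (2.88 at 16 h against 0.591 at 2 h), and vvl (5.88 against 1.89), and the lower one in both was Eip78C.

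Compared per kilobase of exon, the order of the 10 genes differed between libraries. In uracil 16 h the highest were Cpr49Ae at 56.9 normalized counts per kilobase (exact Poisson 95% interval 52.5 to 61.7), Cpr67B at 52.9 (48.3 to 57.9) and CG5065 at 43.1 (41.3 to 45.0). They were followed by Cpr51A at 21.0 (17.4 to 25), ple at 19.8 (18.4 to 21.4), osy at 13.7 (12.5 to 14.9) and Ddc at 7.14 (6.13 to 8.26). The intervals of Cpr49Ae and Cpr67B overlapped, as did those of Cpr51A and ple. At the bottom verm (1.78), serp (1.57) and kkv (0.0973) followed, of which verm and serp had overlapping intervals. In untreated 2 h the order began with Cpr51A at 2.92 (1.64 to 4.82), Cpr67B at 2.26 (1.34 to 3.57) and ple at 1.70 (1.27 to 2.23), and Cpr49Ae was at 0.214 (0.0259 to 0.773), next to last before kkv. The intervals of Cpr51A, Cpr67B and ple overlapped there, as did those of Cpr49Ae and kkv, so these orders are not settled. In untreated 16 h the highest were Cpr67B at 32.4 (29.8 to 35.2), Cpr49Ae at 19.8 (18.0 to 21.9) and CG5065 at 11.5 (10.9 to 12.2). Exon lengths were those of the merged annotated exons, so isoform use can shift these values.

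In the uracil comparison at 2 h both libraries had entered the choice as the low side of the change with time, so its counts are a description. At that time 0 of the 9 measured genes were 2-fold apart in either direction, where 1.5% of all genes stood higher and 1.51% lower, and their median log2 ratio was -0.02. Of the 9, ple alone had an interval above 1, with 11.8 normalized counts against 6.47, a ratio of 1.83 (1.29 to 2.61), and serp alone had an interval below 1, at 1.54 against 3.17, a ratio of 0.484 (0.228 to 0.983). The ratio of verm was 0.497 (0.182 to 1.25), on 8 and 15 reads. The other 6 had ratios from 0.776 to 1.21 with intervals that include 1.

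At 16 h the uracil library was higher than the untreated one for all 9. By at least 2-fold stood 6, against 7.66% of all genes, and 0 stood lower, against 0.993%. The median log2 ratio was 1.19, beside -0.02 over all genes. The uracil 16 h library also entered the choice of the set through the change with time, so this count is not independent of it. Cpr51A had a ratio of 4.32 (3.12 to 6.07), CG5065 of 3.74 (3.47 to 4.02), Cpr49Ae of 2.87 (2.53 to 3.26), ple of 2.36 (2.1 to 2.64), osy of 2.34 (2.05 to 2.67) and Ddc of 2.28 (1.82 to 2.85). Below 2-fold were Cpr67B at 1.63 (1.44 to 1.85), serp at 1.55 (0.971 to 2.47) and verm at 1.34 (0.858 to 2.06). Among the other 78 measured genes of the pathway lists 21 stood 2-fold higher at 16 h with uracil and 1 lower, and at 2 h 1 stood higher and 1 lower.

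**Figure D4:**
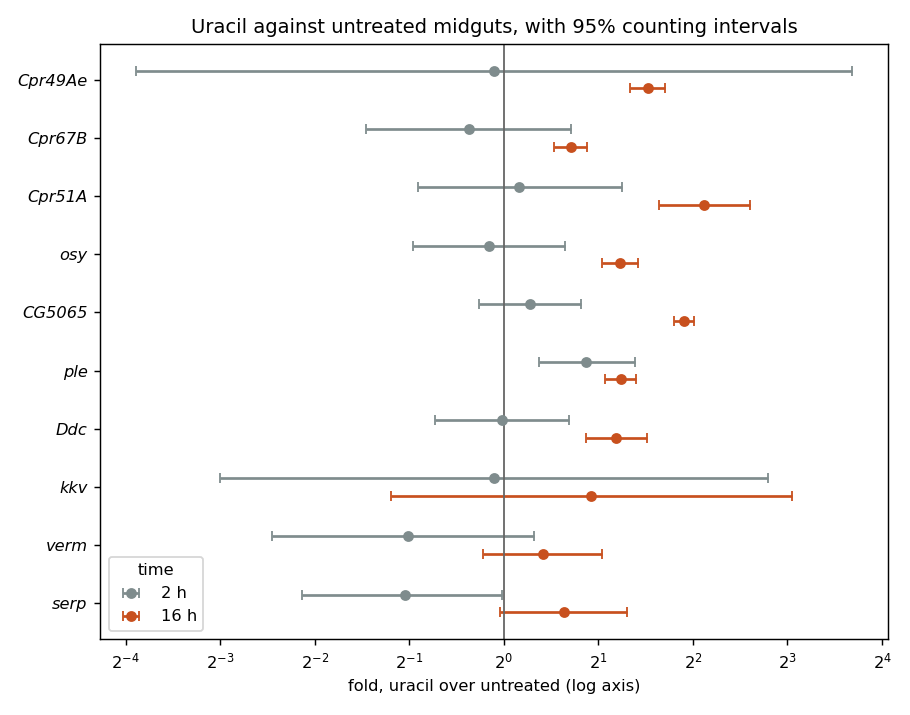
Fold of uracil over untreated (log axis) for each of the 10 genes at 2 h (grey) and 16 h (orange), with exact 95% counting intervals, 1 library per group. At 16 h the intervals of 7 genes lie above 1, and at 2 h that of ple does.

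The change with time was larger with uracil than without for all 9 measured genes, where 46.7% of all genes lay on that side. The difference of the log2 ratios reached 1 in 6 of the 9, against 8.04% of all genes, with a median of 1.19 beside -0.04 over all genes. As a ratio of folds it was smallest for ple, at 1.29 (approximate 95% counting interval 0.903 to 1.84), and largest for Cpr51A, at 3.87 (1.82 to 8.24). For CG5065 it was 3.09 (2.15 to 4.44), and for 7 of the 9 the interval lay above 1. The ratios over time entered the choice of the set, so these counts follow in part from it and support nothing. The intervals hold counting error only, and with 1 library per group the difference between treatments cannot be tested.

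**Figure D5:**
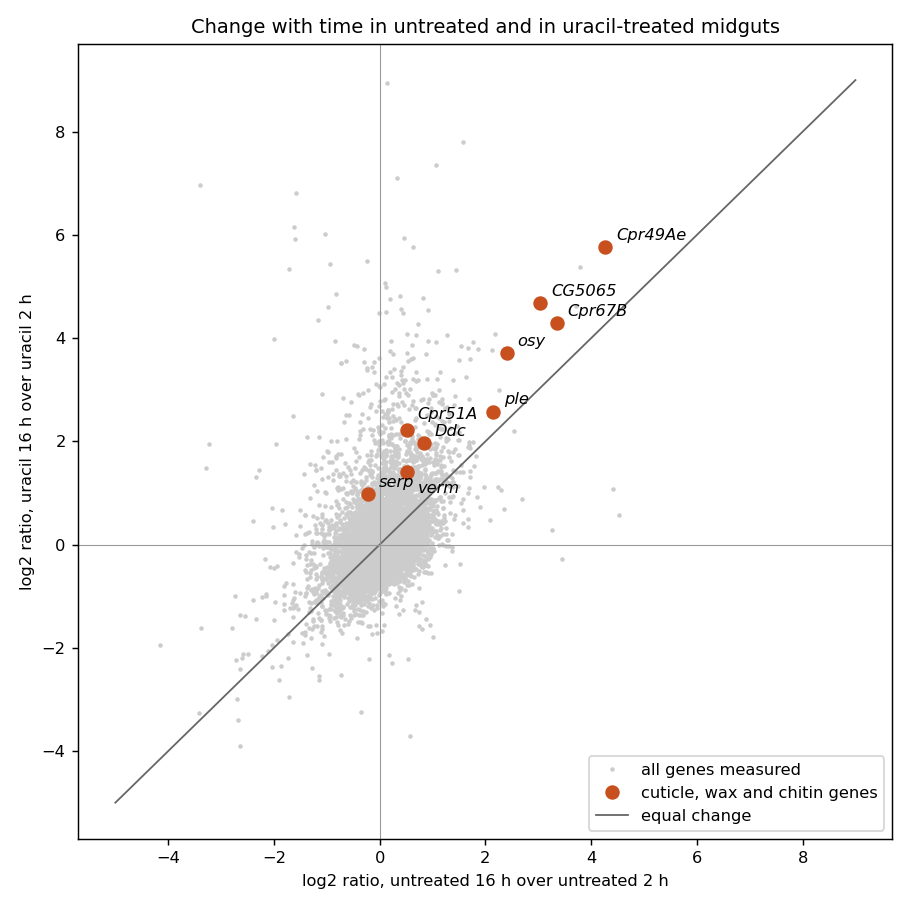
Log2 ratio of 16 h over 2 h in untreated guts (x axis) against the same ratio in uracil-treated guts (y axis), 1 grey point for each of 8560 genes and 1 orange point for each of the 9 measured genes of the set. All 9 lie above the line of equal change.

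For every gene, limma was used to test for a difference with uracil common to 2 h and 16 h, in a model of time and treatment over the 4 libraries. Its only residual is the disagreement between the times, so it does not stand in for replicates. None of the 9 genes passed an adjusted p of 0.05, and 3 of the 8560 genes did, or 0.035%. At an unadjusted p under 0.05 limma gave 2 of the 9, beside 392 of all 8560 genes (4.58%). With edgeR 3 of the 9 were under it, beside 426 genes (4.98%), with 0 of the 9 past the adjusted threshold. All 4 libraries also entered the choice of the set, so these counts are not independent of it and support nothing. The effect of ple was a log2 difference of 0.99 with an SE of 0.241 (adjusted p in limma = 0.535), higher with uracil at both times. That of CG5065 was 1.06 with an SE of 0.392 (adjusted p in limma = 0.999). The uracil ratio of CG5065 was 3.74 at 16 h, but 1.21 at 2 h with a counting interval that includes 1 (0.835 to 1.76). The 2 deacetylase genes had effects of -0.12 each, verm with an SE of 0.391 and serp of 0.412.

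The genes nearest to a median profile of the 9 were sought among 6571 other genes averaging 10 CPM or more. The measure was the Euclidean distance between log2 values centred on each gene's mean. The profile took the median of the 9 in each library separately, at -1.47, 0.575, -0.791 and 1.78 in untreated 2 h, untreated 16 h, uracil 2 h and uracil 16 h. It stood higher in uracil 2 h than in untreated 2 h, although the median log2 ratio of the 9 between those libraries was -0.02. The profile therefore need not be the course of a typical gene of the set. The nearest was Agps, which encodes an enzyme of ether lipid synthesis, at a distance of 0.493, with 5.58, 16.7, 6.5 and 54.7 normalized counts in untreated 2 h, untreated 16 h, uracil 2 h and uracil 16 h. The elongase gene bond came next at 0.572, followed by the takeout gene to at 0.61, SmydA-9 at 0.613 and CG9626 at 0.617. With 4 libraries such likeness is a description of these values.

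Most genes next to those of the set did not share their course. The nearest 2 protein-coding genes on each side came to 36 other genes, of which 33 were in the table and 20 were measured. Over time 0 of the 20 stood 2-fold higher in untreated guts, against 2.8% of all genes, and 4 did with uracil, against 9.38%. None stood 2-fold lower in either, against 2.84% and 2.9%. The 4 included CG8303, near CG5065, and amd, near Ddc, which also belong to the surface lipid and tanning lists. Beside Cpr67B, eIF4E1 was at 266, 321, 286 and 260 normalized counts in untreated 2 h, untreated 16 h, uracil 2 h and uracil 16 h, and CG4022 at 6.97, 10.2, 9.22 and 8.43. Beside osy, Nil had 0 reads in every library and CG6154 had at most 2. CG30197, next to Cpr51A, was at 9.38, 16.8, 11 and 49.6, and Alk, next to CG5065, at 1.39, 2.45, 3.19 and 7.65, both highest in uracil 16 h. A neighbour of both verm and serp, Trpml, was at 1.14, 1.52, 0.827 and 2.33. Coordinates and neighbours were looked up by gene ID in an Ensembl annotation whose build may differ from the one used for alignment.

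Markers of tissues that bear cuticle or adjoin the midgut were in part higher at 16 h, and their part in this pattern was not tested. Over time 2.8% of all 8560 genes stood 2-fold higher in untreated guts and 9.38% with uracil, and 2.84% and 2.9% lower. Between treatments 1.5% stood higher with uracil and 1.51% lower at 2 h, and 7.66% and 0.993% at 16 h. Of the 10 midgut markers 0 stood higher and 3 lower over time in untreated guts, and 1 higher and 1 lower with uracil. Tracheal markers without verm and serp summed to 23.2 normalized counts in untreated 2 h, 48.2 in untreated 16 h, 21.3 in uracil 2 h and 71.1 in uracil 16 h. Of 10 such genes 6 were measured, of which 1 stood 2-fold higher at 16 h in untreated guts and 6 with uracil, and the defining gene trh had 0, 2, 7 and 0 reads. Epidermis and oenocyte markers, most of whose sum was Cyp4g1, came to 195, 86.6, 114 and 342. Of those 14 genes 5 were measured, of which 0 stood 2-fold higher at 16 h in untreated guts and 2 lower, and 5 stood higher with uracil. The epidermal genes y, e, resilin and Vajk1 to Vajk3 had 0 to 3 reads per library. Of 15 hindgut and foregut markers 11 were measured. Over time 0 stood 2-fold higher and 0 lower in untreated guts, and 3 higher and 1 lower with uracil. They summed to 1008, 962, 1024 and 923, and the defining hindgut gene byn had 0 reads in every library. Malpighian tubule markers (13 of 13 measured) stood 2-fold higher at 16 h for 1 gene in untreated guts and 9 with uracil, and at 2 h 4 stood lower with uracil than without. They summed to 1496, 1597, 1315 and 1891. Visceral muscle markers (13 of 13) summed to 2083, 2152, 3034 and 3908, with 7 standing 2-fold higher with uracil at 16 h. The 11 photoreceptor genes summed to 21.4, 84.4, 24.9 and 33.9, and 6 of them were measured. Of these 4 stood 2-fold higher at 16 h in untreated guts and 1 with uracil. At 16 h 3 stood lower with uracil than without and 0 higher. Fat body and hemocyte markers (9 of 12 measured) went both ways: with uracil 2 stood 2-fold lower and 0 higher at 2 h, and 3 lower and 2 higher at 16 h, and over time 0 were 2-fold apart in untreated guts while 1 stood higher and 2 lower with uracil. They summed to 1193, 1154, 1084 and 866.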

How the data were processed

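Values are the deposited signal, gene counts that the authors had normalized per library. Tools named in the submitters' processing notes are edgeR, HTSeq, Bowtie, TopHat2 2.0.5 and cutadapt 1.0, without settings; for build, annotation and strandedness, none is given in the sources used here. In each column all deposited values were whole multiples of its smallest step (100.0% within 0.01 reads), so reads were recovered. They entered the counting intervals and edgeR 4.0.16. Lines sharing an ID (118 lines, 57 IDs) were summed to 13585 IDs, 12888 of which had a symbol. IDs sharing all 4 read counts with another ID (84, among IDs with at least 40 reads) were left out of the lists. Log2 ratios used value + 1.02, the mean value worth 1 CPM, over the 8560 genes averaging 1 CPM or more. The uracil test used limma 3.58.1 (time and treatment, trend, Benjamini-Hochberg at 0.05). It was run on simulated data with the same large change planted at both times, which cannot show how it performs where the times disagree. Ensembl release 115 (BDGP6.54) gave positions and exon lengths. The genes described and the 16 lists (340 of 370 memberships used) were chosen with earlier results of these data known. Genes named besides the 10 were up to 4 per list and comparison among the largest folds, plus the 5 nearest courses; Chs2, CG10561, e, y, the flanking genes and defining markers were named after their values were seen. Other pseudocounts, filters, scalings and tests were tried.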

Additional observations from a re-analysis of the deposited data

Results flagged for a closer look

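In several genes the libraries lay on opposite sides in the groups compared, and these differences were not tested. Uracil over untreated was below 1 at 2 h and above 1 at 16 h for Cpr49Ae (0.932 and 2.87), Cpr67B (0.776 and 1.63), osy (0.900 and 2.34), Ddc (0.985 and 2.28), verm (0.497 and 1.34) and serp (0.484 and 1.55). The counting interval of serp at 2 h lay below 1, and those of the other 5 genes at 2 h included it. For serp the 16 h to 2 h ratio was 0.811 in untreated guts and 2.6 with uracil, on 13 to 44 reads per library.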

How the results depend on the processing

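No paired analysis was possible because each group had 1 library, and no library could be left out for the same reason. Among the 9 measured genes, the counts of genes 2-fold apart stayed within 1.5 times under the other pseudocounts, filters and scalings tried, with 1 exception: with a mean of at least 10 CPM, which 5 of them met, 5 in place of 8 stood 2-fold higher at 16 h with uracil. None passed the uracil test under any setting (adjusted p from 0.325 upwards). Over all genes that test called 29 in place of 3 with no filter, 14 with equal column totals and 5 with edgeR. Equal totals moved the median of all genes over time to 0.18 untreated and 0.1 with uracil. For the other pathway genes, a pseudocount worth 5 CPM gave 0 higher and 0 lower with uracil at 2 h, 10 higher and 0 lower at 16 h, 1 higher and 2 lower over time untreated, and 12 higher and 0 lower over time with uracil. A mean of at least 10 CPM left 43 of them, with 0 lower at 2 h, 7 higher and 0 lower at 16 h, 4 higher and 1 lower over time untreated, and 9 higher and 0 lower over time with uracil. A pseudocount worth 0.25 CPM gave 2 higher at 2 h, and equal totals gave 3 lower over time untreated. A larger added value makes each log2 ratio smaller in size by arithmetic, and a higher mean leaves fewer genes measured. Other causes were not tested. Of the log2 ratios of single genes of the set 11 moved by more than their counting error, all with the pseudocount worth 5 CPM, and none changed sign there. Levels of kkv, verm, serp and, at 2 h, Cpr49Ae rest on few reads.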
